A study of Sus scrofa domesticus with 4 samples.

Results

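Glycolytic enzymes were followed in pig uterine muscle (myometrium) that had been cultured with orexin B, a hypothalamic neuropeptide that binds the orexin receptors. The set holds HK2, GPI, PFKM, ALDOA, TPI1, GAPDH, PGK1, ENO1, LDHA and LDHB. A gene was taken when an array probe carried the RefSeq mRNA accession of that pig gene, and all its probes were used. This gave 32 probes of 8 genes, of the 43603 probes and 2971 named genes on the array. No probe of ALDOA or ENO1 was found in this way, so neither was analysed here. Of the 32 probes, 31 were bright enough to test, from all 8 genes, against 19881 of all probes and 1959 of all named genes. The probe left untested was the dimmer of the 2 PFKM probes.

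The explants came from the middle of the uterine horns of 4 mature gilts (Large White x Polish Landrace, 7 to 8 months old) on days 15 to 16 of gestation. After 2 h of preincubation, slices received 10 nM orexin B for 24 h, and control slices were cultured alongside with no treatment. Each of 4 Agilent arrays carried treated and untreated RNA in a different dye, and the 4 arrays form a single group of replicates numbered 1 to 4, so each array gives its own ratio. Orexin B RNA was in Cy5 on arrays 1 and 3 and in Cy3 on arrays 2 and 4, per the dye fields of the labels. Cultures were set up in duplicate in 4 experiments, and p-values measure the spread between the 4 arrays.

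Glycolysis turns glucose into pyruvate in the cytosol and yields ATP without oxygen. The committed step is phosphofructokinase, and lactate dehydrogenase interconverts pyruvate and lactate. Smooth muscle produces lactate even when oxygen is present, and myometrial contraction draws on this ATP. Several of the genes, among them HK2, PGK1, GAPDH and LDHA, are known targets of hypoxia-inducible factor.

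Values below are log2 ratios of orexin B over untreated, given with their moderated standard error (SE) over the arrays. Ratios within an array are relative to its other probes, since each array was normalised to its own signal. The share of probes well above background ran from 48.7% to 54.3% in the orexin B channel and from 37.6% to 58.2% in the untreated channel, and no probe was saturated. Array 1 was hybridised on a slide of its own, and the remaining arrays on a common slide. Across tested probes, which are not independent, the 4 arrays correlated between r = -0.18 (arrays 2 and 3) and r = 0.36 (arrays 2 and 4). Of 13 smooth muscle markers 9 have a named probe, and all 9 were bright enough to test, as the labelled tissue would have them. The number of arrays limits the precision.

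No glycolytic enzyme passed the threshold of an adjusted p of 0.05 over all probes in limma's moderated test (0 of 31 probes, smallest adjusted p = 0.621). The same test called 0 of the 19881 probes of the array at that threshold, and 1534 (7.72%) at an unadjusted p under 0.05. An unmoderated one-sample test also called 0 probes and left 1195 at the unadjusted level. Of the members' probes 2 (6.45%) reached the unadjusted level, both lower with orexin B, against 3.41% of all probes lower and 4.31% higher at that level. Counted by the brightest tested probe of each gene, these were GPI and PFKM, 2 of 8 genes, against 10.5% of the 1959 genes (4.24% lower and 6.23% higher). By probe, the share in either direction together is near the background and is not a result about the enzymes. Of the 31 probes 18 were above 0, against 54.1% of all probes, and 3 had the same sign on all 4 arrays (9.68%), against 16% of all probes.

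By brightest probe, 4 of the 8 enzymes had a mean above 0 and 4 below, where 53.8% of all tested genes were above 0. Their median was -0.02, and the median over all tested genes was 0.02. All 4 arrays had the same sign for 2 of the 8 enzymes, against 15.3% of all genes. The 95% interval of the ratio lay between a 2-fold decrease and a 2-fold increase for 7 of the 8 enzymes, the exception being GAPDH, as it did for 92.8% of all genes. The arrays differed among themselves in the enzymes: the members' median was -0.22, -0.45, 0.27 and -0.22 on arrays 1 to 4. Over all tested genes the array medians were 0.05, -0.09, 0.03 and 0.05. The mean of the members' array medians was -0.15.

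**Figure D1:**
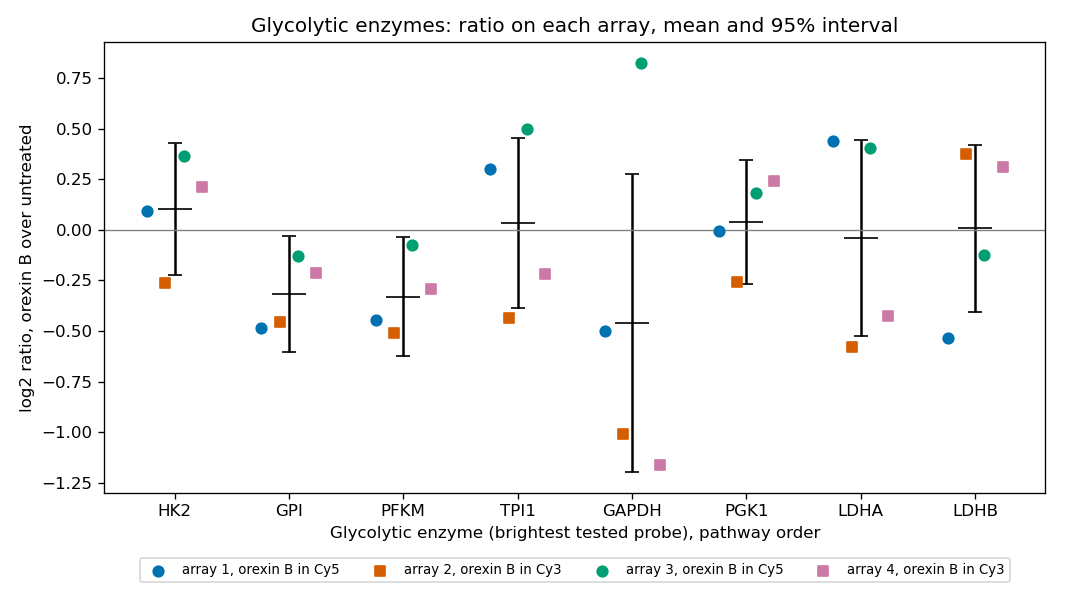
Log2 ratio of orexin B over untreated (y axis) for the brightest tested probe of each of the 8 measured enzymes (x axis, pathway order). Points are the 4 arrays, circles with orexin B in Cy5 and squares with orexin B in Cy3, and the black bar and whiskers are the mean and its 95% interval from limma. All 4 points lie below 0 for GPI and PFKM, and GAPDH spreads from -1.16 to 0.82.

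In the upper part of the pathway, which traps and commits glucose, GPI and PFKM had the smallest spread over arrays of the 8 enzymes (SD 0.18 and 0.19). HK2 (hexokinase 2, which phosphorylates glucose and can sit on the mitochondrial outer membrane) has 1 probe on the array. Its normalised intensity was 272, 599, 599 and 390.1 in the orexin B channel of arrays 1 to 4, against 254, 718, 464 and 337 in the untreated channel. HK2 ratios were 0.09, -0.26, 0.37 and 0.21, with 3 arrays above 0 and array 2 below. The mean was 0.10 ± 0.14 (95% interval -0.22 to 0.43, adjusted p = 0.880), which is not distinguishable from 0. The HK2 probe was dim, and its untreated signal cleared background by Agilent's criterion on 3 of them.

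GPI (glucose-6-phosphate isomerase, which makes fructose-6-phosphate) had an intensity of 27799.7, 19417, 43404 and 18158.5 in the orexin B channel, against 38892, 26574, 47391 and 21040 in the untreated channel, for its brightest probe, A_72_P440286. The orexin B channel was lower on every array. GPI ratios on this probe were -0.48, -0.45, -0.13 and -0.21, a mean of -0.32 ± 0.12 or a 1.25-fold lower level (95% interval -0.61 to -0.03, unadjusted p = 0.0336, adjusted p = 0.621). Neither of the other GPI probes reached the unadjusted level, with means of -0.15 ± 0.12 and 0.31 ± 0.50. The dimmest of the 3, A_72_P146806, read -0.11, -0.98, 2.48 and -0.13, far higher on array 3 than elsewhere, and its untreated signal cleared background on 3 arrays. With the 3 probes averaged the mean of GPI was -0.05. That average includes the dimmest probe, which was tested only because its orexin B signal cleared background on all 4 arrays. Such a filter favours a ratio above 0. Without replicate 1 GPI's brightest probe averaged -0.26 and without replicate 3 it averaged -0.38.

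PFKM (the muscle subunit of phosphofructokinase, the committed step) had an intensity of 519, 448, 534 and 434 in the orexin B channel, against 706, 637, 563 and 532 in the untreated channel, on its tested probe, A_72_P302694. As with GPI, the orexin B channel was the lower one on all 4 arrays, by least on array 3. PFKM ratios were -0.44, -0.51, -0.08 and -0.29, a mean of -0.33 ± 0.12 or a 1.26-fold lower level (95% interval -0.62 to -0.04, unadjusted p = 0.0320, adjusted p = 0.621). The second PFKM probe cleared background on 2 arrays in each channel, was therefore not tested, and read 0.12, -0.44, 0.25 and -0.19. On arrays 1 and 3 these ratios were opposite in sign to those of the tested probe, and at that brightness they do not settle its reading. The tested PFKM probe was itself about as dim as the HK2 probe, though it cleared background on all 4 arrays in both channels. With Agilent's processed signals in place of normexp and loess, the tested PFKM probe averaged -0.53.

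The unadjusted level was not reached by GPI or PFKM without replicate 1, without replicate 2 or without replicate 4, nor with median centring in place of loess (0 of 8 enzymes each). With all the tested probes of each gene averaged, 1 of 8 enzymes, PFKM, reached it, and the average of GPI included its dimmest probe. The HK2 probe was tested only because its orexin B signal cleared background on all 4 arrays, which favours a ratio above 0, and a filter asking this of both channels leaves no value for HK2. With that limit, HK2 minus PFKM was 0.54, 0.25, 0.44 and 0.50 on arrays 1 to 4. The mean difference, HK2 minus PFKM, was 0.43 (SD 0.13 over the arrays), from ratios of 0.10 for HK2 and -0.33 for PFKM. An exact two-sided sign-flip test over the 4 arrays gave p = 0.125, and 0.375 after Benjamini-Hochberg adjustment over 3 pairs. Because 0.125 is the smallest p it can give, and HK2 passed the filter through its orexin B channel, no conclusion is drawn from it.

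**Figure D2:**
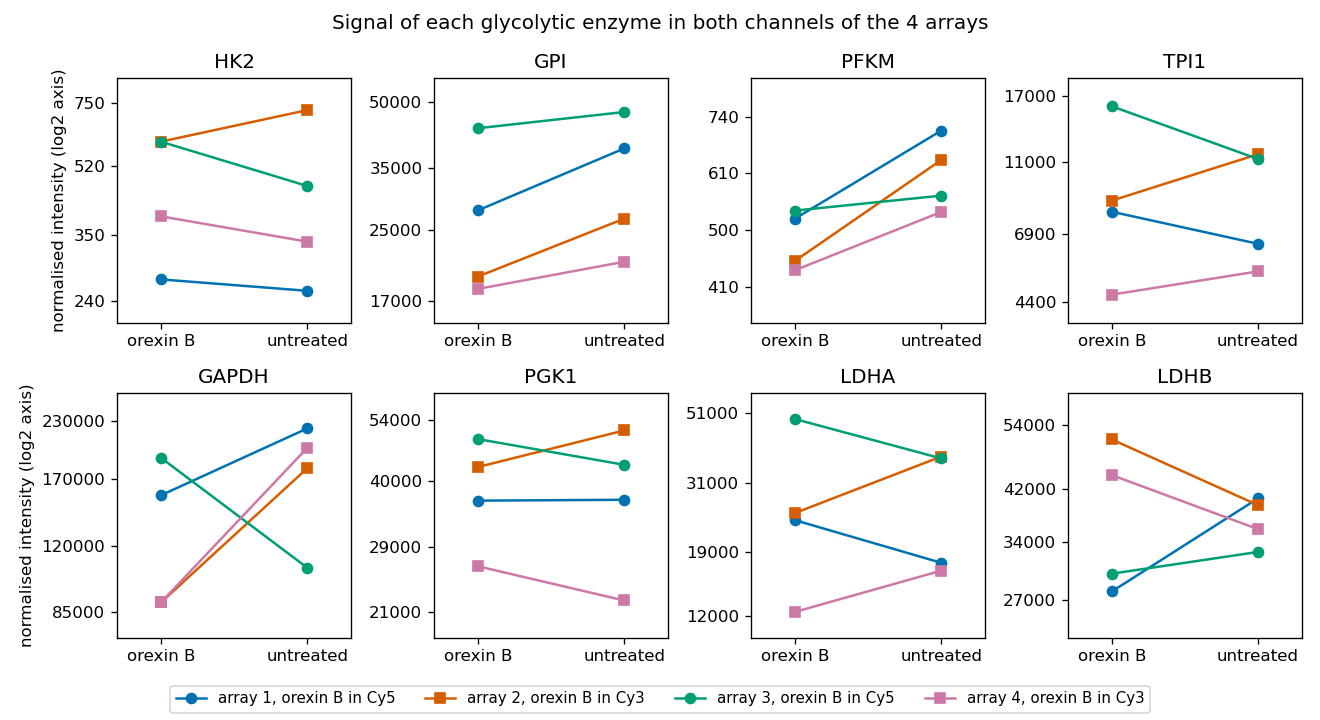
Normalised intensity (y axis, log2 scale, a separate range in each panel) of the brightest tested probe of each enzyme in the orexin B channel (left) and the untreated channel (right). Each line joins both channels of an array, with circles where orexin B was in Cy5 and squares where it was in Cy3. Every line rises toward untreated for GPI and PFKM, while for TPI1, LDHA and LDHB the circles and the squares tilt in opposite ways.

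For each of the 5 measured enzymes of the lower pathway the arrays differed in sign. TPI1 (triose phosphate isomerase, which interconverts the triose phosphates) had an intensity of 7962, 8563, 15861 and 4631 in the orexin B channel, against 6455, 11597, 11235 and 5392 in the untreated channel. TPI1 was higher with orexin B on arrays 1 and 3 and lower on arrays 2 and 4, with ratios of 0.30, -0.44, 0.50 and -0.22. This held for all 5 tested TPI1 probes, which ran from 0.29 to 0.56 on array 1, from -0.77 to -0.44 on array 2, from 0.47 to 0.66 on array 3 and from -0.22 to -0.04 on array 4. Since the signs cancel, the means of the 5 probes ran from -0.01 to 0.11 (adjusted p from 0.907 to 0.998). The 5 probes of TPI1 thus differed less from each other than the arrays did.

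GAPDH (glyceraldehyde-3-phosphate dehydrogenase, widely used as a reference gene for expression) had the widest spread over arrays among the 8 enzymes. Its brightest probe, A_72_P756170, read 156110, 89402, 189749 and 89439 in the orexin B channel, against 221010, 179650, 107135 and 199717 in the untreated channel. GAPDH was higher with orexin B on array 3 and lower on the other 3 arrays, with ratios of -0.50, -1.01, 0.82 and -1.16 (SD 0.90). The median SD over all tested genes was 0.29. The mean of -0.46 ± 0.31 (95% interval -1.20 to 0.27, adjusted p = 0.755) is not distinguishable from 0. It was -0.89 without replicate 3, -0.28 without replicate 2 and -0.23 without replicate 4. The second GAPDH probe, A_72_P321038, read 0.36, -0.63, 0.69 and -0.50, and averaged -0.02 ± 0.24. On array 1 the probes of GAPDH had opposite signs. Mammalian genomes hold processed copies of GAPDH, and signal from near-identical copies could not be told apart.

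PGK1 (phosphoglycerate kinase 1, which forms ATP) had an intensity of 36398, 42943, 49277 and 26351 in the orexin B channel, against 36553.5, 51417, 43420.2 and 22268 in the untreated channel. PGK1 was close to even on array 1, lower with orexin B on array 2 and higher on arrays 3 and 4, with ratios of -0.01, -0.26, 0.18 and 0.24. The mean was 0.04 ± 0.13 (95% interval -0.27 to 0.35, adjusted p = 0.956). The means of the 6 PGK1 probes ran from -0.14 to 0.04. For 2 of them the fit used 3 arrays, because the spot on array 1 carried an outlier mark. All 6 were below 0 on array 2 and above 0 on array 3.

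Lactate dehydrogenase is a tetramer of M subunits, encoded by LDHA, and H subunits, encoded by LDHB. LDHA, the form that predominates in tissues that make lactate, had an intensity of 23826, 25058, 48958 and 12396.5 in the orexin B channel, against 17593, 37465, 36986 and 16624 in the untreated channel on its only probe. LDHA was higher with orexin B on arrays 1 and 3 and lower on arrays 2 and 4, with ratios of 0.44, -0.58, 0.40 and -0.42. The mean was -0.04 ± 0.20 (95% interval -0.52 to 0.44, adjusted p = 0.975).

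LDHB, the form that predominates in heart, went the other way on its brightest probe, A_72_P592974. The intensity was 27974, 51067, 30017 and 44339 in the orexin B channel, against 40446.5, 39363, 32717 and 35800.3 in the untreated channel. LDHB ratios were -0.53, 0.38, -0.12 and 0.31, below 0 on arrays 1 and 3 and above 0 on arrays 2 and 4. The mean was 0.01 ± 0.17 (95% interval -0.40 to 0.42, adjusted p = 0.997).

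The 12 LDHB probes did not all have the signs of the brightest. Those signs were held by 5 probes, the brightest included, which were among the 6 brightest, and on array 1 these ran from -1.16 to -0.27. On array 1 the other 7 ran from -0.19 to 0.42, with 6 of them above 0. These 7 did not all share an arrangement of signs over the arrays. Most of them were above 0 on arrays 1, 3 and 4 and below 0 on array 2. On array 4 all 12 probes were above 0, from 0.04 to 0.42. The split was seen in the values, and no test was made of it. All 12 means were small, from -0.15 to 0.18 (adjusted p from 0.750 to 0.997). All 12 probes carry 1 accession, and the RefSeq table of Sscrofa11.1 lists the symbol LDHB for 2 gene entries, of which this accession belongs to 1, an entry about as short as a mature mRNA. Whether the probes also bind the transcript of the second entry was not tested, so LDHB values are uncertain.

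The ratio of LDHA minus that of LDHB was 0.97, -0.96, 0.53 and -0.73 on arrays 1 to 4, with a mean of -0.05 (SD 0.94) from -0.04 for LDHA and 0.01 for LDHB. The exact sign-flip test gave p = 1 (adjusted p = 1 over 3 pairs). GAPDH minus PGK1, neighbouring steps of the pathway, was -0.50, -0.75, 0.64 and -1.40, with a mean of -0.50 (SD 0.85) from -0.46 for GAPDH and 0.04 for PGK1, and p = 0.375 by the exact test (adjusted p = 0.562). In both pairs the difference changed sign between arrays. Each gene was taken by its brightest probe, so the differences depend on that choice. The second GAPDH probe averaged -0.02 and was above 0 on array 1, at 0.36. On array 1 the 7 LDHB probes without the signs of the brightest ran from -0.19 to 0.42.

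**Figure D3:**
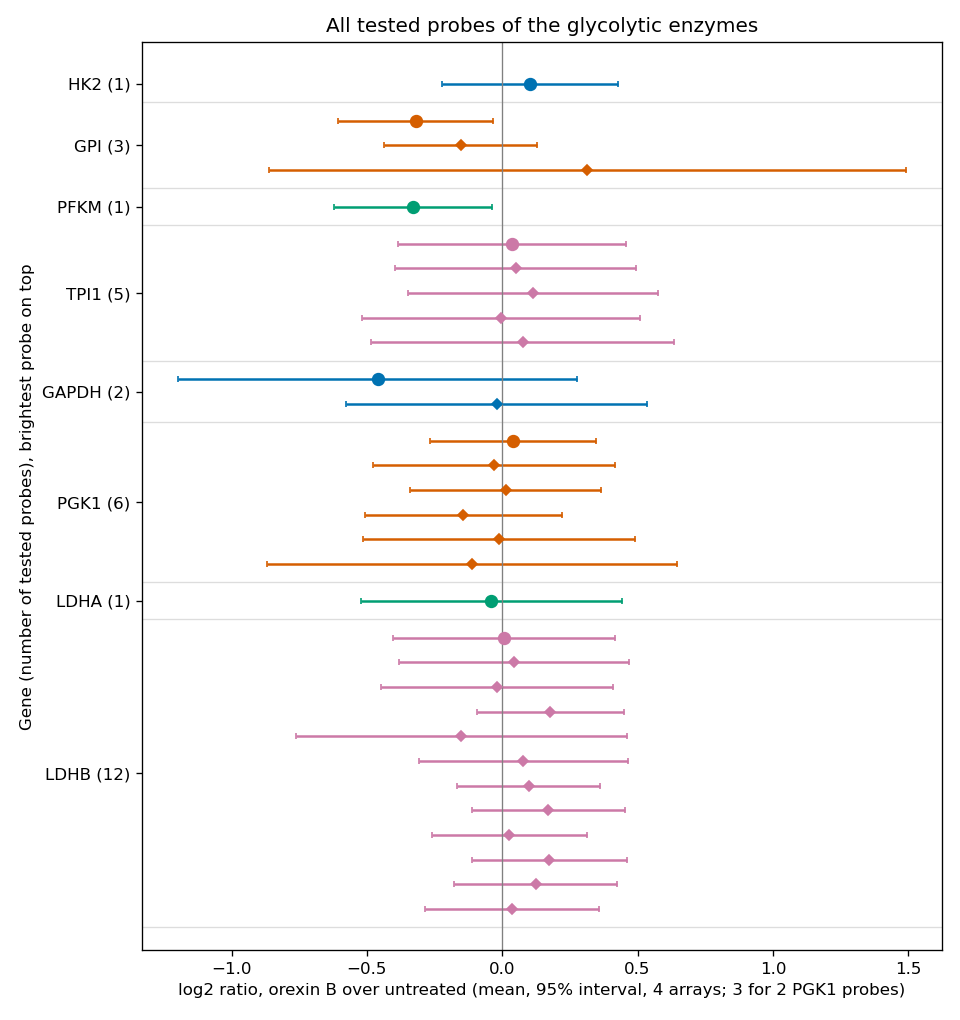
Mean log2 ratio of orexin B over untreated (x axis) with its 95% interval for each of the 31 tested probes, grouped by gene (y axis) with the brightest probe on top as a larger circle. Intervals of 29 probes include 0, and the brightest GPI probe and the PFKM probe lie below 0.

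For several enzymes the sign differed between the dye orientations, so the values are given by orientation. The members' median of means was 0.12 over the arrays whose orexin B RNA was in Cy5 (1 and 3) and -0.33 over those where it was in Cy3 (2 and 4). For LDHA the Cy5 arrays averaged 0.42 and the Cy3 arrays -0.50. For TPI1 they averaged 0.40 (Cy5) and -0.33 (Cy3), and for GAPDH 0.16 (Cy5) and -1.08 (Cy3). LDHB was the other way round, at -0.33 (Cy5) and 0.34 (Cy3). By brightest tested probe, GPI and PFKM were below 0 in both orientations. GPI was at -0.31 (Cy5) and -0.33 (Cy3), PFKM at -0.26 (Cy5) and -0.40 (Cy3). The next brightest GPI probe read -0.14, -0.28, 0.07 and -0.27 on arrays 1 to 4, so it was above 0 on array 3. TPI1 and LDHA, 2 of 8 enzymes, were above 0 on arrays 1 and 3 and below 0 on arrays 2 and 4, against 12.7% of all genes. LDHB, 1 of 8, had the opposite arrangement, against 7.61% of all genes, though only 5 of its 12 probes had it. Together these were 3 of 8 enzymes, against 20.3% of all genes with either arrangement. With the dye orientation as a further term in limma, the orexin B part of PFKM was -0.33 ± 0.12 (adjusted p = 0.356) and that of GPI -0.32 ± 0.12 (adjusted p = 0.373). The dye part was 0.62 ± 0.21 for GAPDH (adjusted p = 0.333), 0.46 ± 0.11 for LDHA (adjusted p = 0.236), 0.36 ± 0.11 for TPI1 (adjusted p = 0.308) and -0.34 ± 0.12 for LDHB (adjusted p = 0.348). None of these passed over all probes. Each orientation holds 2 of the 4 arrays, and dye and array cannot be told apart within them.

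Markers of the cells in the tissue also differed between arrays, and none passed over all probes. The 9 smooth muscle markers, all below 0 on average, had array medians of 0.00, -1.13, 0.16 and -1.21, which like those of LDHA and TPI1 were lower on arrays 2 and 4. Their summed normalised intensity ran from 350027 to 892027 in the orexin B channels and from 646036 to 1089830 in the untreated channels. The 3 fibroblast and stroma markers (of 6 listed) had array medians of -0.12, -0.81, 0.11 and -0.95, and summed intensities of 45534 to 79584 with orexin B against 75437 to 79422 untreated. The 8 macrophage and monocyte markers had array medians of 0.69, 0.08, 0.90 and 0.77, all above 0. Of these 8 genes, 7 were higher at an unadjusted p under 0.05, against 6.23% of all genes. A gene could pass the filter through its orexin B channel alone, which favours a ratio above 0. Whether any of the 8 did so is not given here. Their summed intensities were 7128 to 17053 in the orexin B channels against 4286 to 10128 untreated. The 2 tested epithelial markers, KRT8 and EPCAM, had medians of 0.33, -0.46, -2.09 and 0.89, and summed intensities of 445 to 2154 with orexin B against 686 to 2827 untreated. The 3 tested striated muscle markers, ACTA1, MYLPF and CKM, had array medians of 0.50, -1.18, 0.35 and -0.79, and TNNT3, whose signal cleared background on no array, MYH1 and MYH2 were not tested. The ACTA1 probe was far brighter (mean log2 intensity 16.75) than those of CKM (10.12) and MYLPF (9.68). Whether it also binds smooth muscle actin transcripts was not tested. Array medians were 0.39, 0.33, -0.01 and 0.21 for 3 blood endothelial markers, 0.17, 1.07, -0.11 and 0.96 for 3 neutrophil and platelet markers, and 0.04, -0.16, 0.11 and 0.07 for 3 T and NK cell markers. In these other marker lists 3 genes reached the unadjusted level, which 10.5% of all genes reached in either direction. They were PPBP, a platelet chemokine, at 1.14 ± 0.20, CDH5, an endothelial cadherin, at 0.31 ± 0.12, and DCN, the stromal proteoglycan decorin, at -0.43 ± 0.13. Each was 1 of 3 tested genes in its list. The level was reached by 0 of 9 smooth muscle, 0 of 3 striated muscle, 0 of 2 epithelial and 0 of 3 T and NK cell markers. The count is not read as a result about the markers. CDH1 and CLDN4 were too dim to test, and no listed erythrocyte marker has a named probe. The part of cell composition in the ratios of the enzymes was not tested. In whole tissue, fewer cells of a type and less RNA per cell cannot be told apart.

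**Figure D4:**
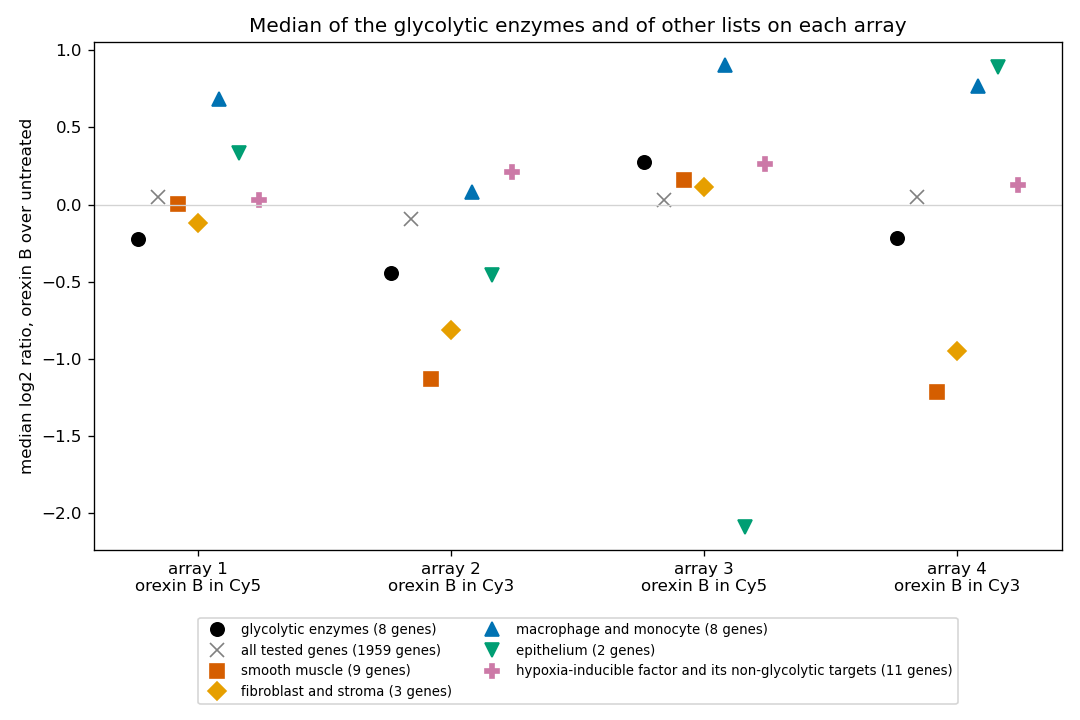
Median log2 ratio of orexin B over untreated (y axis) on each array (x axis, with the dye of the orexin B RNA), for the 8 glycolytic enzymes, all tested genes and lists of cell markers and hypoxia genes. The glycolytic median is above 0 on array 3 only, the smooth muscle and stroma medians lie between -1.21 and -0.81 on arrays 2 and 4, and the epithelial median is lowest on array 3.

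Around the 8 enzymes, 9 lists of glucose metabolism and hypoxia held 139 further genes, of which 59 have a named probe and 50 were tested. Of these 50, 24 were above 0 and 26 below, with a median of -0.01. None passed over all probes (0 of 50, smallest adjusted p = 0.596), and at an unadjusted p under 0.05 there were 2 higher and 0 lower, against 6.23% higher and 4.24% lower of all genes. The 2 were TXNIP and ADM.

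TXNIP, a glucose-responsive arrestin that restrains glucose uptake, had ratios of 0.04, 1.41, 0.31 and 0.83, all above 0 and highest on arrays 2 and 4. Its mean was 0.65 ± 0.22 (1.57-fold, unadjusted p = 0.0232, adjusted p = 0.596). The other tested regulators of glycolytic flux were PRKAA2, a catalytic subunit of the energy sensor AMPK, at -0.39 ± 0.19, HIF1A, the oxygen-regulated subunit of hypoxia-inducible factor, at 0.15 ± 0.13, MYC at -0.08 ± 0.13, and the AMPK subunits PRKAB1 at -0.04 ± 0.12 and PRKAG1 at -0.07 ± 0.15. In all, 2 of the 6 were above 0.

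ADM, the vasodilator peptide adrenomedullin and a target of hypoxia-inducible factor, had ratios of 0.08, 0.44, 0.68 and 1.16, above 0 on every array. Its mean was 0.59 ± 0.18 (unadjusted p = 0.0143, adjusted p = 0.596). Of the 11 tested genes of the hypoxia list, 9 were above 0, against 53.8% of all genes. Their median was 0.16, against 0.02 over all genes. The unadjusted level was reached by 1 of the 11, against 10.5% of all genes in either direction. The list's array medians were 0.03, 0.21, 0.26 and 0.13. Among the rest, EPAS1, a hypoxia-inducible factor subunit, had 0.37 ± 0.18, and ERO1A, an oxidase of protein folding, 0.21 ± 0.11. Neither reached the unadjusted level. The glycolytic enzymes, which include targets of the same factor, had a median of -0.02, and no difference between the lists was tested.

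Of other glycolytic enzymes, 3 of 19 listed were tested, and 2 were below 0. HK1, the hexokinase of most tissues, had -0.24 ± 0.12, the muscle enolase ENO3 -0.12 ± 0.18 and the aldolase ALDOC 0.05 ± 0.11. HK1, like the brightest probes of GPI and PFKM, was below 0 on all 4 arrays, at -0.12, -0.50, -0.14 and -0.18. The other probes of GPI and PFKM were above 0 on array 3. For glucose and lactate transport, the insulin-responsive transporter SLC2A4 had 0.05 ± 0.18, the monocarboxylate transporter SLC16A1 0.11 ± 0.16, and BSG (basigin), its chaperone, -0.22 ± 0.22.

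At the entry of pyruvate to the mitochondrion 6 genes were tested, 3 above and 3 below 0, with a median of -0.02. PDK4, a kinase that inhibits pyruvate dehydrogenase, was at 1.15, 0.33, -1.36 and 1.21, so array 3 opposed the other three, and averaged 0.33 ± 0.40. PDK1 had -0.18 ± 0.17 and DLD, the shared dehydrogenase subunit, 0.24 ± 0.16. Of 9 tested genes of the tricarboxylic acid cycle, 4 were above 0, and CS (citrate synthase) had 0.32 ± 0.14 over 3 arrays. Glycogen genes (5 tested, 4 below 0) included PGM1, phosphoglucomutase 1, at -0.32 ± 0.14 (adjusted p = 0.644), which links glycogen to glucose-6-phosphate, the substrate of GPI. Gluconeogenic genes (6 tested, 2 above 0) had a median of -0.03, and the pentose phosphate genes TKT, RPIA and TALDO1 had 0.16 ± 0.15, 0.11 ± 0.13 and -0.15 ± 0.13. None of these lists had a member at the unadjusted level.

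The genes whose 4 ratios lay nearest to the members' array medians, by Euclidean distance over the arrays, were ADSL (0.11), SRPK3 (0.15), GPX1 (0.16), AGPAT2 (0.18), VPS33A (0.18) and P2RY2 (0.20). Each had a positive ratio on array 3 and negative ratios on arrays 1, 2 and 4, as the members' median did, which follows largely from choosing them by this distance. Their mean ratios ran from -0.20 for SRPK3 to -0.08 for P2RY2.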

How the data were processed

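The deposited array files hold the intensity of each spot (median pixel brightness of spot and local background in each colour) written by Agilent's Feature Extraction, version 10.7.3.1 per the file headers. Also deposited are processed intensities (background-subtracted, dye-normalised) and a log10 ratio of Cy5 over Cy3 that the same software computed, per the file headers. The values of the deposited series table are log2 ratios. Against the processed signals, 100% of its values matched within 0.01 after turning arrays 2 and 4, so it already runs orexin B over untreated without further centring (column medians -0.27, -0.08, -0.20 and -0.09). Of its columns 0 were left unmapped. The files give no gene names and no genome build, so no coordinates were used.

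Ratios were turned by the labels' dye fields, although the labels' protocol text names only untreated RNA in Cy3. Background was corrected by normexp (offset 50), and arrays were normalised singly by loess, giving control spots a weight of 0 (limma 3.58.1, R 4.3.3). Channel intensities were further set to a common scale between arrays (Aquantile). Control spots and outlier-marked spots (31 to 138 per array) were left out, and spots of a probe averaged. A probe was tested if Agilent's flag put it well above background in the orexin B channel of all 4 arrays, or in the untreated channel of all 4, with an unmarked spot on at least 3. The mean ratio was fitted with limma's lmFit and eBayes (3 residual and 4.10 prior degrees of freedom). The p-values are two-sided and, where adjusted, corrected by Benjamini-Hochberg across the 19881 tested probes, and 95% intervals came from the same fit.

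RefSeq accessions matched 6700 probes to the Sscrofa11.1 table, 6599 of them with a symbol, and 37004 probes stayed unnamed. A gene is represented by its tested probe of highest mean intensity, and its other probes are given beside it. Named genes were the 10 members whatever their values, up to 4 genes of each list by smallest p, and the 6 genes nearest to the members' medians. Genes outside these are named only to complete a count, and 2 genes that the rule names are not reported here. The members, lists and tests were chosen with earlier results of these data known, and the 3 tests between pairs of enzymes were added after the files had been read. The fit was tested on simulated data. Alternatives covered the background, normalisation, signal source, filter, dye, test, slide and probes used, and leaving out single arrays. Plots were made in matplotlib 3.10.9 (Python 3.11.15).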

Additional observations from a re-analysis of the deposited data

Results flagged for a closer look

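Among 82 sets of 4 array values (members, named genes and list medians), 4 held a value far from the other three by Dixon's criterion, where chance gives 4.1. None was one of the 8 glycolytic enzymes. HK1 was at -0.50 on array 2, against -0.12, -0.14 and -0.18 on the other arrays. The striated muscle marker CKM was at -0.69 on array 2, against 0.50, 0.33 and 0.47. The T cell marker CD3G was at 0.52 on array 2, against 0.04, 0.09 and 0.08. The median of all 1959 tested genes was -0.093 on array 2, against 0.05, 0.03 and 0.05.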

How the results depend on the processing

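No alternative brought a probe past the adjusted threshold. GPI, PFKM and GAPDH kept their sign under every setting in which arrays 2 and 4 were turned, except GAPDH with orexin B in Cy5 alone. Probes at an unadjusted p under 0.05 numbered 177 with median centring, 2302 without a filter, 2382 with a dye term and 4280 with slide as a random block, and from 727 to 1922 with 1 array left out. Enzymes at that level numbered 0 with median centring, 1 each with Agilent's processed signals, the deposited series table and averaged probes, and from 0 to 3 with 1 array left out.

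The members' median was 0.12 with orexin B in Cy5 alone, -0.33 with it in Cy3 alone, 0.10 for Cy5 over Cy3 without turning, and from -0.15 (without replicate 3) to 0.012 (without replicate 2) with 1 array left out. With median centring TPI1 was -0.037, PGK1 -0.068 and LDHB -0.14. Normexp with offset 0 gave LDHB -0.0026, slide as a random block gave TPI1 -0.0038 and averaged probes gave PGK1 -0.033. Orexin B in Cy5 alone gave GAPDH 0.16, LDHA 0.42 and LDHB -0.33. Orexin B in Cy3 alone gave HK2 -0.026, TPI1 -0.33 and PGK1 -0.0084. Without turning, GPI was 0.013, PFKM 0.071, GAPDH 0.62, LDHA 0.46 and LDHB -0.34. With 1 array left out TPI1 ran from -0.12 to 0.19, PGK1 from -0.028 to 0.14, LDHA from -0.20 to 0.14 and LDHB from -0.12 to 0.19. The causes were not tested.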
